A study of Homo sapiens with 40 samples.

Results

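The comparison set 30 µM zoledronate directly against 2 µM fluvastatin in MDA-MB-231 cells after 24 h. MDA-MB-231 is a human breast cancer cell line with mesenchymal traits. The members were the 8 arrays of lot I that the labels assign to these agents at 24 h, 4 of each, out of 40 arrays in all. Zoledronate cells received 30 µM and fluvastatin cells 2 µM of the agent for 24 h in medium with fetal bovine serum, and control cells received solvent alone in parallel. The doses differ, and the design text gives each as the concentration that inhibits by 50% in a longer treatment. The design text also states 4 independent replicates and a pairing of conditions by day, so that each zoledronate array was set against the fluvastatin array with the same replicate number. Other sets of arrays served for comparison: the same agents at 12 h in lot I, zoledronate at 30 µM for 48 h, and zoledronate at 100 µM for 24 h, the last 2 in lot II with controls of their own. All groups were 1 cell line with 4 arrays each, and this number limits the precision.

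Both agents act on the mevalonate pathway, which turns acetyl-CoA into isoprenoids. Fluvastatin is a statin and acts early in it. Zoledronate is a nitrogen-containing bisphosphonate and inhibits farnesyl diphosphate synthase (FDPS), several steps further on. The products farnesyl and geranylgeranyl diphosphate are attached as lipid anchors to small GTPases such as the Ras, Rac, Rab and Rap proteins, and farnesyl diphosphate is also the precursor of cholesterol. When sterols run low, the SREBP transcription factors switch on the genes of the pathway. Without its lipid anchor RHOA cannot work at the membrane to organise actin, and the coactivators YAP and TAZ depend on that actin tension to enter the nucleus.

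The arrays gave log2 values after RMA for 18417 named genes, where a difference of 1 is a doubling. Array medians of the 8 arrays lay between 6.21 and 6.32. Differences below are zoledronate minus fluvastatin, the mean of 4 same-numbered pairs, with a standard error (SE) from limma's fit of all 40 arrays. This SE and the intervals built on it pool the spread of all groups and do not measure the spread of the 4 pairs. For RHOB, DKK1 and CCN1 those pairs spread more widely than the SE shows. A gene was called where its adjusted p was under 0.05 over all genes. Higher or lower with zoledronate means relative to fluvastatin, not to control. Replicate 1 stood apart from the other pairs. Over all genes, the zoledronate minus fluvastatin difference had an SD of 0.352 in replicate 1, against 0.201, 0.219 and 0.222 in replicates 2, 3 and 4. For fluvastatin minus control it was 0.37 in replicate 1, against 0.203, 0.237 and 0.239 in replicates 2, 3 and 4. For zoledronate minus control it was 0.227 in replicate 1, against 0.185, 0.182 and 0.196. Of the called genes, 1152 (86.5%) had a larger difference in replicate 1 than in each other pair, and 45.9% of all genes did. Results that rest on replicate 1 are therefore given with and without it.

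At 24 h, 1332 of 18417 genes (7.23%) were called, 540 higher (2.93%) and 792 lower (4.3%) with zoledronate than with fluvastatin. The counts of called list members below are to be read against these shares. After centring each array on its median the split was 759 higher and 633 lower. The differences were modest in size: 186 genes (1.01%) were called with 1.5-fold or more, 44 higher (0.239%) and 142 lower (0.771%). For 17342 genes (94.2%) the 95% interval of the difference lay inside 1.5-fold either way. Of the 1332 called genes, 1284 (96.4%) went 1 way in 4 of 4 pairs, against 29.7% of all genes. In 614 of them (46.1%) the 4 zoledronate and 4 fluvastatin arrays did not overlap, against 6.7% of all genes. Genes were called from these same arrays, so both shares follow in part from the selection and lend the calls no support. With replicate 1 left out, 146 genes were called (36 higher and 110 lower), and 144 of these were among the 1332. The counts were 1289 without replicate 2, 646 without replicate 3 and 712 without replicate 4. With the spread taken from the 8 arrays alone, limma called 0 genes, with 3452 at an unadjusted p under 0.05.

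AGR2, a secretory chaperone, AKR1C1, AKR1C2 and AKR1C3, which reduce steroids, and SPDEF, a transcription factor of secretory epithelia, were among the genes with the largest lower differences with zoledronate relative to fluvastatin, as was RHOB. DKK1, a secreted inhibitor of Wnt signalling, CCN1, which encodes a secreted protein under YAP and TAZ control, HHIP, a hedgehog antagonist, HSD17B2, which oxidises sex steroids, and ST6GALNAC5, a sialyltransferase, were among those with the largest higher ones. The lower genes with the largest differences ran from −1.75 (AGR2) to −1.09 (VSIG1), and the higher ones from 0.74 (SNORA62) to 1.07 (SNORD13P1). SNORD13P1, a small nucleolar RNA pseudogene, had zoledronate values of 3.89, 2.40, 2.94 and 3.32, against fluvastatin values of 1.81, 2.22, 2.33 and 1.91. These lie near the bottom of the table, whose lowest value was 1.2, and its call ended without replicate 1 (adjusted p = 0.407).

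Several of the largest differences lay outside the gene lists. ADAMTS6, a secreted metalloprotease, had log2 values of 7.75, 7.34, 7.32 and 7.48 with zoledronate, against 6.52, 6.88, 6.64 and 6.83 with fluvastatin. No zoledronate array overlapped the fluvastatin range, and the gene was higher by 0.75 ± 0.11 (adjusted p = 0.000279, and 0.00848 without replicate 1). HSD17B2 had 7.45, 8.15, 8.25 and 7.96 with zoledronate and 6.31, 7.60, 7.46 and 7.0 with fluvastatin. These overlapped, with replicate 1 lowest in both groups, but each pair went the same way, by 0.86 ± 0.10 (adjusted p = 7.69e-05, and 0.00244 without replicate 1). AOX1, aldehyde oxidase, LPAR1, a receptor for lysophosphatidic acid, CYP24A1, which degrades vitamin D, and IL7R, a cytokine receptor chain, were higher by 0.79 ± 0.14, 0.76 ± 0.14, 0.76 ± 0.17 and 0.74 ± 0.14. Without replicate 1, AOX1 and LPAR1 still passed (adjusted p = 0.0304 and 0.0458), and CYP24A1 and IL7R did not. VSIG1, an adhesion protein of stomach epithelium, had 4.90, 5.15, 4.92 and 5.23 with zoledronate, against 6.82, 5.35, 6.04 and 6.37 with fluvastatin. All zoledronate arrays lay below all fluvastatin arrays, at −1.09 ± 0.17 (adjusted p = 0.000691, and 0.0114 without replicate 1). ANKRD22 (−1.45 ± 0.28), TCP11L2 (−1.34 ± 0.37), CST1 (−1.20 ± 0.29), GDF15, a stress-induced cytokine (−1.11 ± 0.28), and CCNA1 (−1.10 ± 0.22) were lower, and none of these 5 passed without replicate 1.

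**Figure D1:**
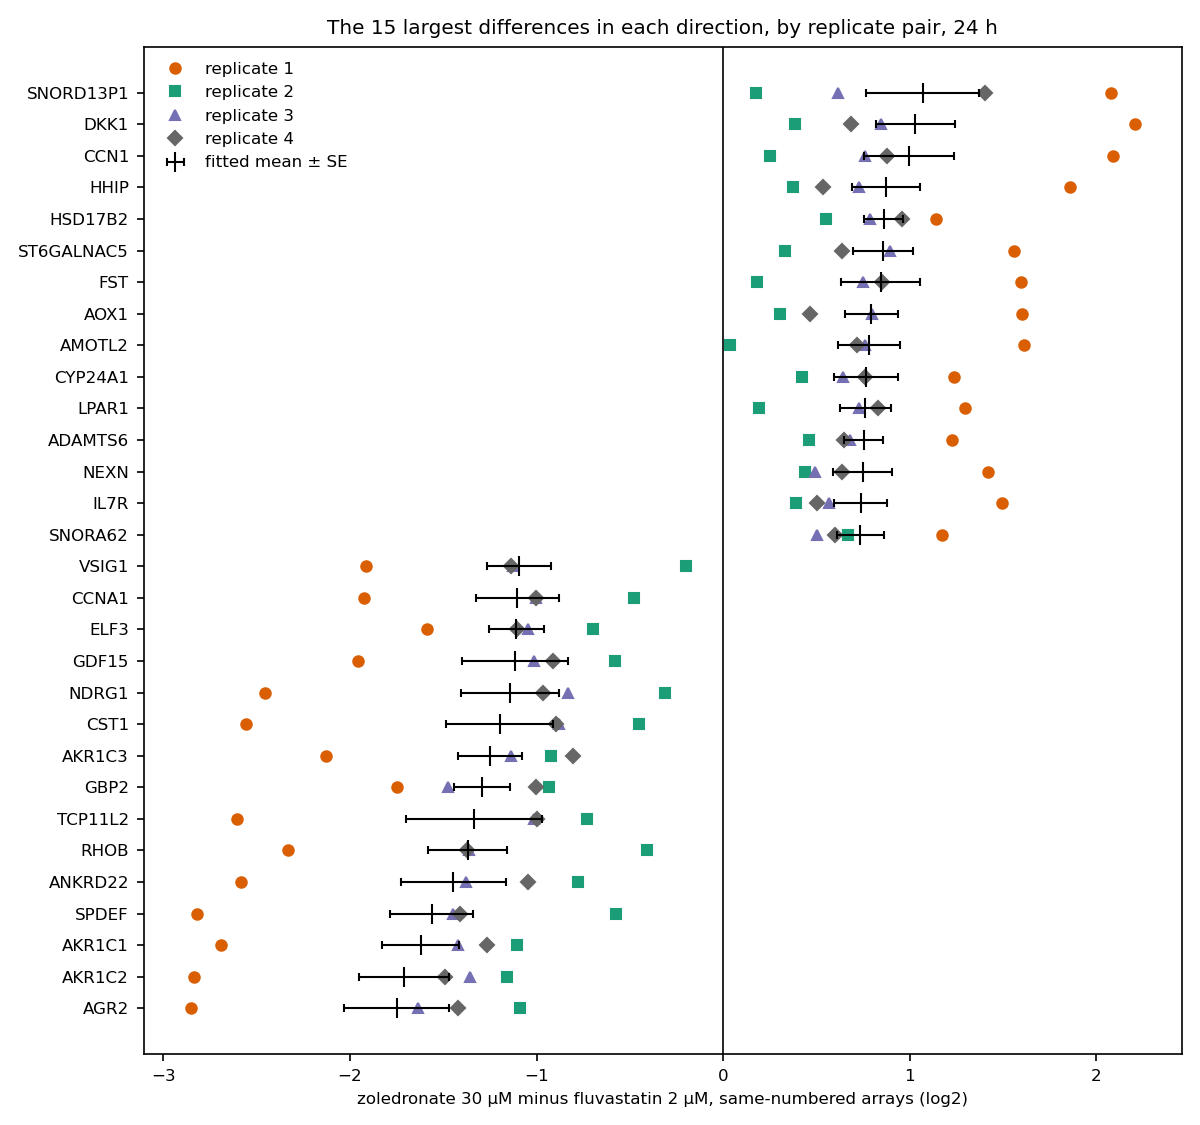
Zoledronate 30 µM minus fluvastatin 2 µM at 24 h (x axis, log2) for each same-numbered pair of arrays, for the 15 largest called differences in each direction that went 1 way in 4 of 4 pairs. Bars are the fitted mean ± SE. Replicate 1 holds the pair with the largest size for every gene drawn, for example −2.85 for AGR2 and 2.21 for DKK1, and the replicate 2 pair is mostly the smallest.

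The genes of the mevalonate and sterol branches that were called were lower with zoledronate than with fluvastatin. HMGCS1, an early enzyme of the pathway, had log2 values of 9.49, 10.13, 10.28 and 9.91 with zoledronate, against 10.18, 10.58, 10.79 and 10.46 with fluvastatin. Each zoledronate array lay below its fluvastatin partner, although the groups overlapped, with a difference of −0.55 ± 0.16 (adjusted p = 0.041). The median difference of 12 measured mevalonate genes was −0.12, against −0.0028 over all genes. HMGCS1 was their 1 called member (8.33%, against 7.23% of all genes). That call ended with each of the 4 replicates left out in turn (adjusted p from 0.0781 to 0.284), after median centring (adjusted p = 0.0501), with other forms of the replicate block or none, from the 8 arrays alone and with an intensity trend. With a random replicate block or an intensity trend 1 other member was called lower instead, and the list's count was 4 with lot I arrays alone and 3 with array weights. FDPS, the target of zoledronate, had zoledronate values of 9.82, 9.96, 9.86 and 9.71, against 9.66, 9.92, 9.91 and 9.70 with fluvastatin, and these overlapped fully. Its difference of 0.04 ± 0.10 had a 95% interval of −0.16 to 0.24. GGPS1, which makes geranylgeranyl diphosphate, stood at −0.21 ± 0.16, with an interval of −0.56 to 0.13.

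Of 10 sterol genes after farnesyl diphosphate, 3 were called lower and 0 higher (30.0% called, against 7.23% of all genes), with a median of −0.26. They were MSMO1, a sterol methyl oxidase, at −0.57 ± 0.13, TM7SF2, a sterol reductase, at −0.42 ± 0.12, and LSS, lanosterol synthase, at −0.31 ± 0.07 (adjusted p = 0.00739, 0.0298 and 0.00551). Against control, the list's median was 0.07 with zoledronate and 0.33 with fluvastatin; both use the same control arrays. SQLE, squalene epoxidase, stood at −0.25 ± 0.10 and did not pass (adjusted p = 0.155). Among 21 SREBP regulators and lipid targets, 2 were called (9.52%, against 7.23% of all genes), both lower. They were ACSS2, which makes cytosolic acetyl-CoA, at −0.59 ± 0.09, and STARD4, a cholesterol carrier, at −0.37 ± 0.08. INSIG1, which holds SREBP in the endoplasmic reticulum, had values of 8.93, 9.43, 9.56 and 9.46 with zoledronate and 9.37, 9.57, 9.87 and 9.78 with fluvastatin. It missed the threshold at −0.30 ± 0.10 (adjusted p = 0.0643). Of 7 LXR and efflux genes 2 were called (28.6%, against 7.23% of all genes), both lower at −0.37. They were NR1H3, the sterol-sensing receptor LXR alpha, and SMPDL3A (0, 2, 1 and 1 called with replicate 1, 2, 3 or 4 left out). ABCA1, ABCG1 and APOE of the same list stood at −0.006, −0.11 and −0.05 and did not pass. Leaving out replicate 1, 2, 3 or 4 gave 0, 3, 2 and 2 called sterol genes and 1, 2, 2 and 1 called SREBP genes. ACSS2 was the SREBP gene called without replicate 1, at −0.51 (adjusted p = 0.0212).

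The promoters of HMGCS1 and MSMO1 are shown because the CCAAT box, bound by NF-Y, is a known partner site of SREBP in sterol genes. The sequences are RefSeq's (GRCh38.p14), 250 bases before to 50 after the gene start, 5′ to 3′ on the gene's strand: HMGCS1 at chr5:43313363-43313662 (minus strand), the 1 of its 2 listed promoters with a match, and MSMO1 at chr4:165327419-165327718 (plus strand). Capitals mark CCAAT on either strand (ATTGG on the other).
HMGCS1: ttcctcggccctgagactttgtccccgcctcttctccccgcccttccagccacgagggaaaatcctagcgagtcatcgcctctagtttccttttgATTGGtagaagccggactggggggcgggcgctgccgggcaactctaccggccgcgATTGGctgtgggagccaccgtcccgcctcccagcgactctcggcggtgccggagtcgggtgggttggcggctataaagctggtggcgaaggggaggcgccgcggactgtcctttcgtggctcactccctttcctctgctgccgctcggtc
MSMO1: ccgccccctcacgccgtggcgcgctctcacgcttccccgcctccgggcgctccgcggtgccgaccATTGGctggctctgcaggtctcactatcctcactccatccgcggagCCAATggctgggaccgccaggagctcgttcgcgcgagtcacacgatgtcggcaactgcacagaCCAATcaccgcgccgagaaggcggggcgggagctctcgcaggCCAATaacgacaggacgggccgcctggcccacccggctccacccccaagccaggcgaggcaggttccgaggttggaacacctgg
All 4 called genes of the mevalonate and sterol lists (HMGCS1, LSS, MSMO1 and TM7SF2) had CCAAT or ATTGG in at least 1 listed promoter of this length, as do 39.7% of 27305 genes in the RefSeq table. A match is a run of letters and not evidence of binding. Uncalled members of these lists were not scanned, so the share does not bear on which genes differed between the agents.

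RHOB, RHOA and RHOC, small GTPases that carry lipids of the pathway, were lower with zoledronate, RHOB by the most. RHOB, a short-lived GTPase of endosomes, had log2 values of 9.25, 9.15, 8.93 and 8.93 with zoledronate, against 11.59, 9.55, 10.29 and 10.30 with fluvastatin. The groups did not overlap, and the pair differences were −2.33, −0.41, −1.36 and −1.37. Control arrays had 8.95, 8.46, 8.61 and 8.75, so that zoledronate exceeded control by 0.37 ± 0.21 and fluvastatin by 1.74 ± 0.21. RHOB was called at −1.37 ± 0.21 (adjusted p = 0.000651, and −1.05 with adjusted p = 0.0204 without replicate 1).

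RHOA, the main driver of stress fibres, differed less, with 12.23, 12.25, 12.24 and 12.28 with zoledronate and 12.67, 12.39, 12.39 and 12.54 with fluvastatin. These groups did not overlap, and the difference was −0.25 ± 0.06 (adjusted p = 0.0147). RHOC, a close relative linked to invasion, had 10.10, 10.00, 9.97 and 9.88 with zoledronate, against 10.79, 10.17, 10.17 and 10.18 with fluvastatin. Its difference was −0.34 ± 0.09 (adjusted p = 0.0173), and replicate 1 of the fluvastatin group lay far above the other 3. Without replicate 1 or without replicate 4 RHOB alone of the 3 passed, RHOA standing at adjusted p = 0.238 and 0.0673 and RHOC at 0.284 and 0.057.

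Of 20 Ras, Rap and Ral genes 2 were called (10.0%, against 7.23% of all genes). RERG (−0.47 ± 0.13), an estrogen-regulated Ras-like inhibitor of growth, and RRAS (−0.41 ± 0.11) were lower. RERG was dim, averaging 4.75 with zoledronate and 5.21 with fluvastatin. Both calls ended without replicate 1, 3 or 4. Of 11 prenylation enzymes CHML, a Rab escort protein, was the 1 called (9.09%, against 7.23% of all genes). It was higher by 0.32 ± 0.08 and did not pass without replicate 1 (adjusted p = 0.238). PGGT1B, a subunit of the geranylgeranyl transferase, stood at 0.03 ± 0.07 with an interval of −0.11 to 0.18.

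The RHOB promoter is shown because RHOB had the largest difference of the 3 genes and its promoter is known for CCAAT boxes. It lies at chr2:20446824-20447123 (GRCh38.p14, plus strand), and capitals mark the 2 matches to CCAAT or ATTGG.
RHOB: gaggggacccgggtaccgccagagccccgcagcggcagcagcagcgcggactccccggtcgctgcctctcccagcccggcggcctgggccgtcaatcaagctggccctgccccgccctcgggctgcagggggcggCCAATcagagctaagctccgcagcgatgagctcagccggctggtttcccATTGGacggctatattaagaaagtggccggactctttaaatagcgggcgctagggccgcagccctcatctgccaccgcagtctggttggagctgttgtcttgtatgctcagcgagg

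The Krüppel-like factors are zinc finger regulators, of which KLF2 is known to respond to statins in endothelium. Of 12 measured, 6 were called lower with zoledronate and 0 higher, with a median of −0.32. KLF2 had values of 9.39, 9.23, 9.02 and 8.93 with zoledronate, against 10.31, 9.25, 9.42 and 9.45 with fluvastatin. The groups overlapped, the second pair differed by only −0.02, and the call (−0.46 ± 0.11, adjusted p = 0.0147) ended without replicate 1 (−0.31, adjusted p = 0.273), 3 (adjusted p = 0.0521) or 4 (adjusted p = 0.0694). KLF3, KLF13, KLF9 and KLF6 stood at −0.67 ± 0.12, −0.61 ± 0.13, −0.50 ± 0.08 and −0.44 ± 0.10. A second, dimmer probe set of KLF13 differed by only −0.16. With replicate 1, 2, 3 or 4 left out, 2, 6, 4 and 3 members were called, KLF3 and KLF9 being those without replicate 1. At 12 h 4 members were called lower, KLF2 and KLF6 among them, at −0.68 (adjusted p = 0.00878) and −0.59 (adjusted p = 0.0107). KLF7 and KLF13 stood at −0.73 and −0.58 at 12 h.

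YAP and TAZ target genes went the other way. Of 26 measured, 12 were called higher with zoledronate and 0 lower, with a median of 0.26. CCN1, a secreted matrix protein, had log2 values of 11.47, 11.53, 11.16 and 11.07 with zoledronate, against 9.38, 11.28, 10.40 and 10.19 with fluvastatin. Each pair went the same way, but the replicate 2 fluvastatin array lay above the 2 lowest zoledronate arrays. CCN1 differed by 1.00 ± 0.24 (adjusted p = 0.0133), and without replicate 1 by 0.63 (adjusted p = 0.233). CCN2, its relative, had 11.40, 10.87, 10.76 and 10.70 with zoledronate and 9.77, 10.67, 10.20 and 10.19 with fluvastatin, which just failed to overlap. It stood at 0.72 ± 0.20 (adjusted p = 0.0315, or 0.399 without replicate 1). AMOTL2, which binds YAP, and AJUBA, a LIM protein, were higher by 0.78 ± 0.17 and 0.64 ± 0.13. The receptor tyrosine kinase gene AXL was higher by 0.44 ± 0.08 and CRIM1, a transmembrane protein, by 0.47 ± 0.09. The list's count was 1, 13, 8 and 7 with replicate 1, 2, 3 or 4 left out, AXL being the member called without replicate 1 (adjusted p = 0.037). Against control, the list's median was −0.03 with zoledronate and −0.30 with fluvastatin.

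Actin genes that SRF drives had 5 of 21 members higher and 0 lower (23.8% called, against 7.23% of all genes), with a median of 0.04. Of the 21 differences 13 were above 0 and 8 below. The actins ACTB and ACTG1 stood at 0.01 and 0.03, and VCL and TES at −0.19 and −0.27, and these did not pass. CALD1, caldesmon, was higher by 0.36 ± 0.08, the calponins CNN3 and CNN2 by 0.38 ± 0.10 and 0.30 ± 0.08, and FHL2, a LIM-domain cofactor, by 0.32 ± 0.08. Their count was 0, 4, 3 and 1 with replicate 1, 2, 3 or 4 left out. NEXN, nexilin, an actin-binding protein among the largest differences, was higher by 0.75 ± 0.16.

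The promoters of CCN2 and ANKRD1 are shown because they are textbook sites of the TEAD factors through which YAP and TAZ act. CCN2 lies at chr6:131951323-131951622 and ANKRD1 at chr10:90921038-90921337 (GRCh38.p14, both minus strand). Capitals mark GGAATG, or CATTCC for the other strand, with 3 matches in CCN2 and 2 in ANKRD1.
CCN2: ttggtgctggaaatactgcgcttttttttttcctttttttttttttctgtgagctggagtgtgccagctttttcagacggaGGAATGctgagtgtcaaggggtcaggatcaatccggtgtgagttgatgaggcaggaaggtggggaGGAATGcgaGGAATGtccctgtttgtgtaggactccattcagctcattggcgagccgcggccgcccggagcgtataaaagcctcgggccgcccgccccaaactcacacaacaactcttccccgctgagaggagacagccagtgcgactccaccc
ANKRD1: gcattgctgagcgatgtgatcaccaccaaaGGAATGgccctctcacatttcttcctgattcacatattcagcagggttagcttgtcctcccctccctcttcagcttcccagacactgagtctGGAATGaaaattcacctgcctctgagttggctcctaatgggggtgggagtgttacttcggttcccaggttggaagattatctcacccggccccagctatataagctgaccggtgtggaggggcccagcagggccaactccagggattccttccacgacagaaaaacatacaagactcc
Of the 12 called targets, 10 had a promoter in the RefSeq table, and 6 of these (AJUBA, AMOTL2, ANKRD1, AXL, CCN2 and TGFB2) held the motif in at least 1 listed promoter, as do 16.7% of 27305 genes in that table. The list was made of known YAP and TAZ targets, and its uncalled members were not scanned. That share therefore does not bear on which targets differed between the agents.

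**Figure D2:**
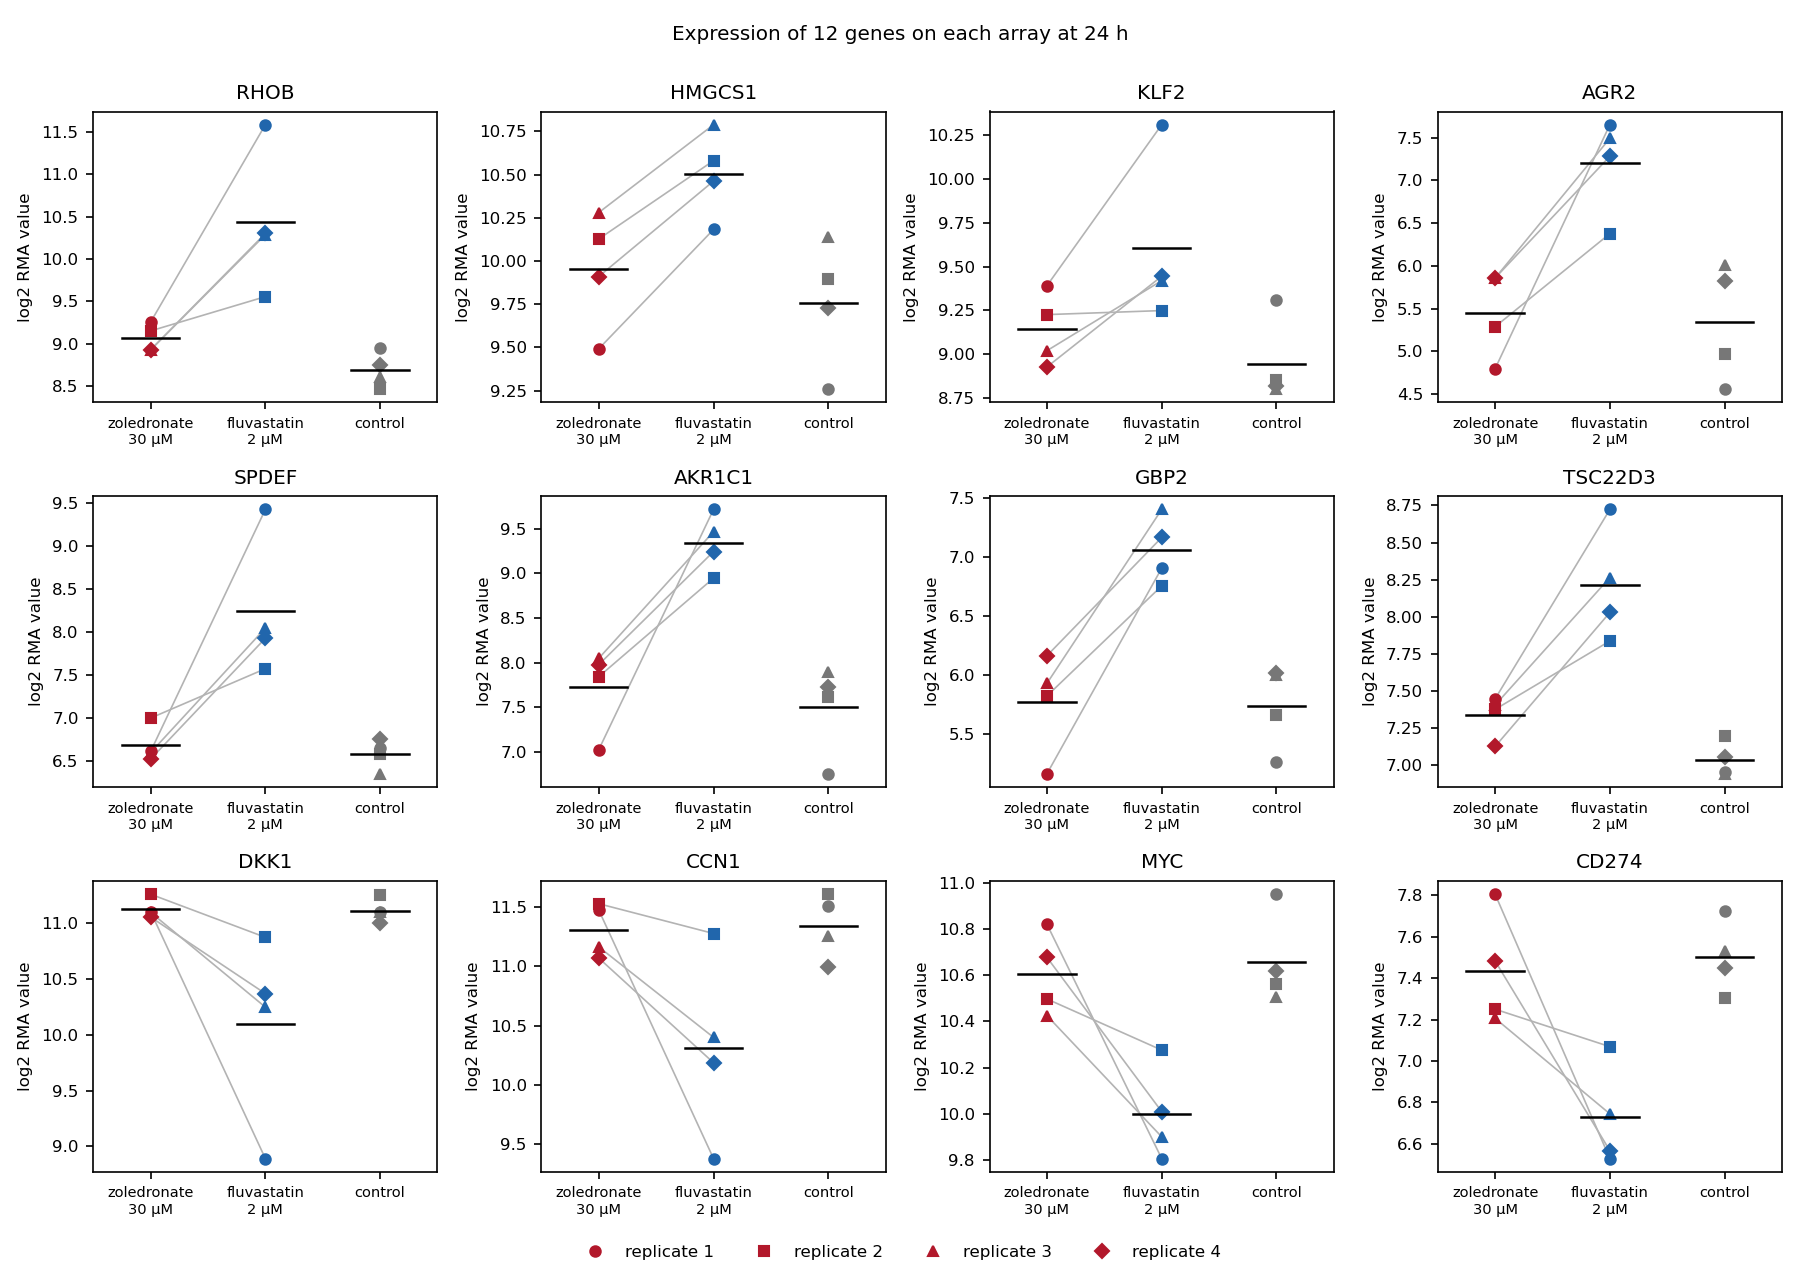
Log2 RMA values (y axis, a scale of its own for each gene) of 12 genes on each array at 24 h, for zoledronate 30 µM, fluvastatin 2 µM and control. Symbols mark the replicate number, grey lines join same-numbered zoledronate and fluvastatin arrays, and black bars are group means of 4 arrays. RHOB, SPDEF and DKK1 show zoledronate arrays close together and fluvastatin arrays spread out, with fluvastatin replicate 1 farthest from its zoledronate partner.

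Of 17 genes that report on ERK signalling, most of them its own feedback inhibitors, 9 were lower with zoledronate and 1 was higher. In all, 58.8% were called, against 7.23% of all genes, with a median of −0.27. The other members did not pass, among them CCND1 (0.10), ETV4 (0.04), ETV5 (−0.0009), SPRY2 (−0.15) and DUSP6 (−0.19). SPRED1, which inhibits Ras, stood at −0.55 ± 0.10, DUSP4, an ERK phosphatase, at −0.40 ± 0.08 and PHLDA1 at −0.31 ± 0.07. DUSP1, a phosphatase of stress kinases and ERK, was the higher one at 0.37 ± 0.07 (adjusted p = 0.004). Counts of lower members were 1, 8, 5 and 6 with replicate 1, 2, 3 or 4 left out, SPRED1 (−0.40, adjusted p = 0.0342) being that without replicate 1. The ligands of the EGF receptor family split. TGFA, transforming growth factor alpha, had its arrays apart, with 7.33, 7.67, 8.16 and 8.25 for zoledronate and 8.65, 8.35, 8.79 and 8.73 for fluvastatin. It was lower, at −0.78 ± 0.12 (adjusted p = 0.000867, and 0.0196 without replicate 1). EGF (−0.34 ± 0.09), NRG2 (−0.31 ± 0.08) and the receptor inhibitor ERRFI1 (−0.43 ± 0.11) were also lower. HBEGF, another ligand, was higher by 0.55 ± 0.15, as was LRIG1, which degrades the receptors, by 0.28 ± 0.07. In all, 6 of 13 were lower and 2 higher, and without replicate 1 TGFA and EGF alone passed. The count of 8 was 7, 1 and 3 without replicate 2, 3 or 4.

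Among cell cycle genes, the called replication genes were higher with zoledronate and the called brakes of the cycle lower. Of 27 G1/S genes, 7 were called higher and 0 lower, and all 27 differences were above 0, with a median of 0.31. MCM2, MCM6 and MCM7, parts of the replicative helicase, were higher by 0.40 ± 0.10, 0.30 ± 0.08 and 0.30 ± 0.07, and CDT1, which loads it, by 0.45 ± 0.12. The list's median in single pairs was 0.74 in replicate 1 and 0.10, 0.24 and 0.25 in replicates 2, 3 and 4, and 0, 9, 1 and 2 members were called with each left out. Of 30 G2/M and spindle genes limma called 0, with 0 at an unadjusted p under 0.05 and a median of 0.01. Of 19 CDK inhibitors and FOXO-linked genes, 8 were lower and 0 higher, with a median of −0.27. TSC22D3, a leucine zipper protein known as a glucocorticoid target, had 7.45, 7.38, 7.41 and 7.13 with zoledronate, against 8.72, 7.84, 8.26 and 8.03 with fluvastatin. The groups did not overlap, and it was lower, at −0.87 ± 0.14 (adjusted p = 0.000898, and 0.0207 without replicate 1). CCNG2, a cyclin of arrested cells, SESN3, a stress protein, and YPEL5 stood at −0.69 ± 0.16, −0.58 ± 0.15 and −0.44 ± 0.12. The p21 gene CDKN1A was lower, at −0.37 ± 0.10 (adjusted p = 0.0276). The count of 8 was 1, 7, 2 and 3 with replicate 1, 2, 3 or 4 left out.

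MYC, which drives growth and ribosome production, had log2 values of 10.82, 10.50, 10.43 and 10.68 with zoledronate, against 9.81, 10.28, 9.90 and 10.01 with fluvastatin. Every zoledronate array lay above every fluvastatin array, and MYC was higher by 0.61 ± 0.10 (adjusted p = 0.00125, and 0.0237 without replicate 1). Of the 26 genes of its network and of ribosome biogenesis, 9 were higher and 2 lower, with a median of 0.17. ODC1, which starts polyamine synthesis, was higher by 0.34 ± 0.05, RRP9, a processing factor of ribosomal RNA, by 0.41 ± 0.08 and BOP1, a ribosome assembly factor, by 0.41 ± 0.08. The 2 lower members were MXD1 (−0.59 ± 0.13) and MXD4 (−0.43 ± 0.11), repressors that compete with MYC for its partner MAX. The higher count was 2, 10, 5 and 5 with replicate 1, 2, 3 or 4 left out, MYC and ODC1 being those without replicate 1.

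**Figure D3:**
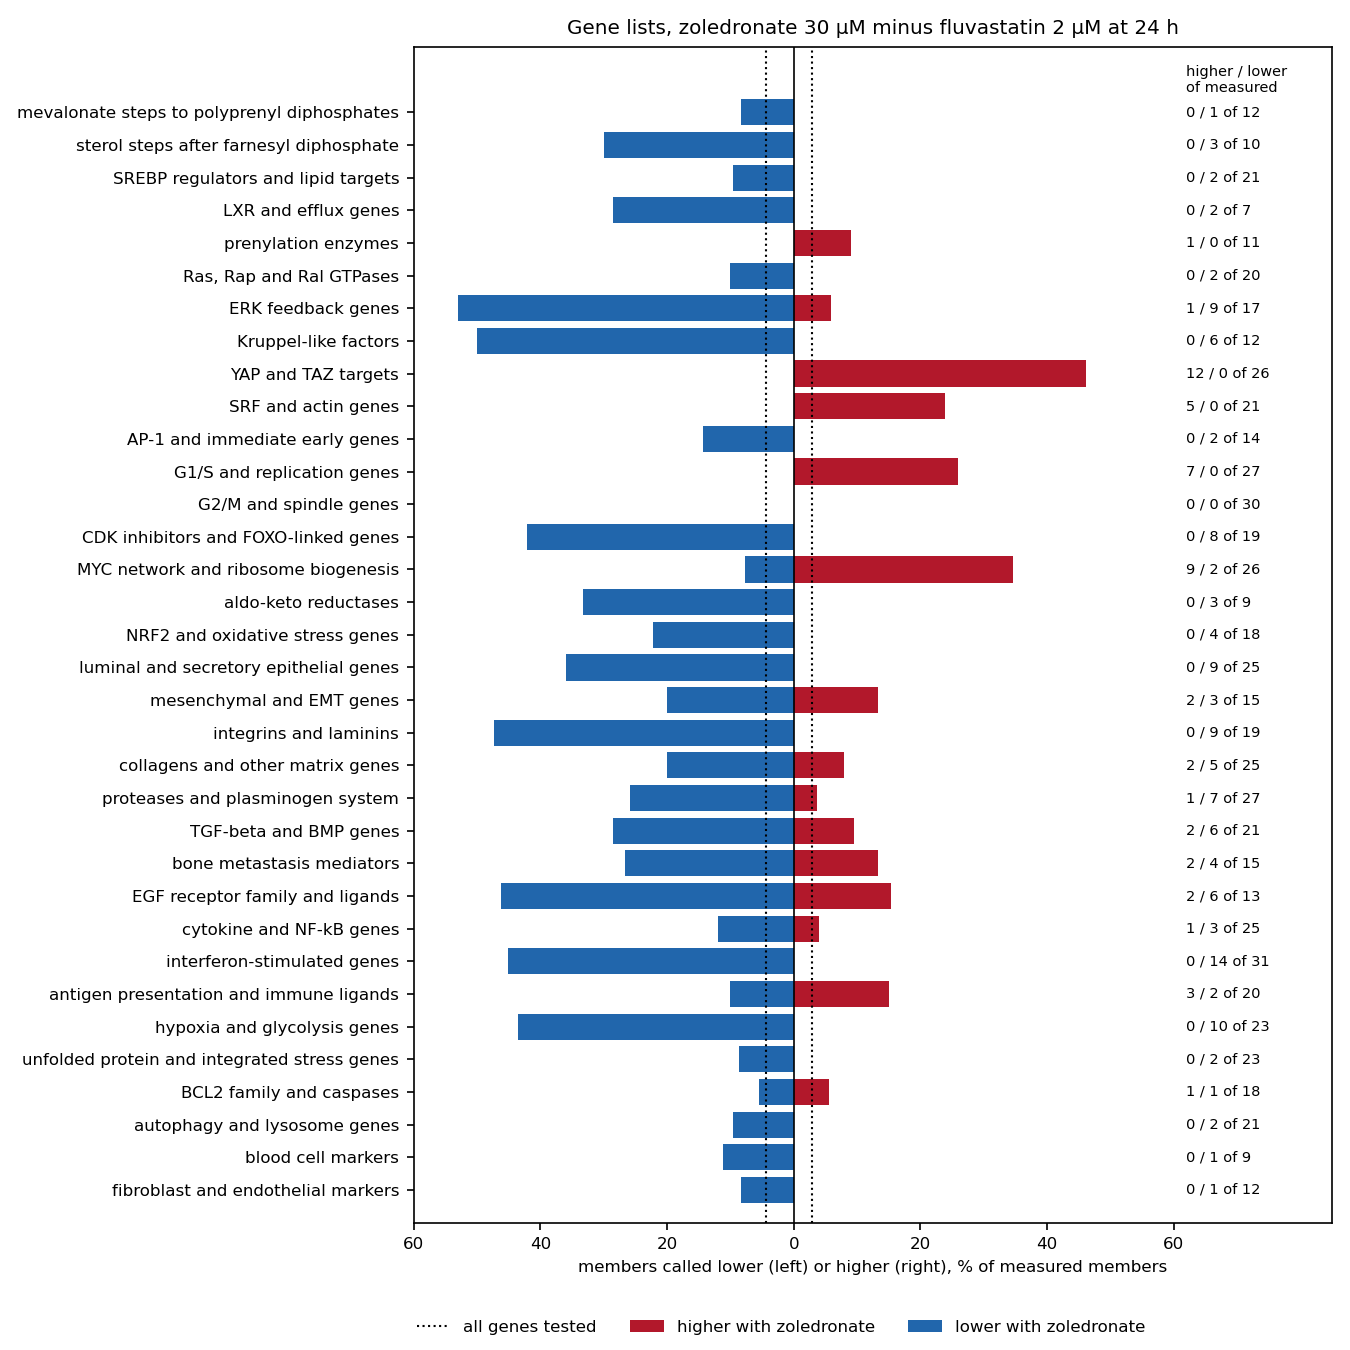
Share of measured members of 34 gene lists called higher (right, red) or lower (left, blue) with zoledronate 30 µM than with fluvastatin 2 µM at 24 h, in percent of measured members, with the counts at the right. Dotted lines are the shares over all 18417 genes, 2.93% higher and 4.3% lower. YAP and TAZ targets and MYC network genes reach farthest right, and ERK feedback genes, Krüppel-like factors and integrins and laminins reach farthest left.

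Secretory and luminal epithelial genes, which mark the milk-secreting and hormone-responsive inner layer of the breast epithelium, were lower with zoledronate where they differed. AGR2 had log2 values of 4.80, 5.29, 5.86 and 5.86 with zoledronate, against 7.65, 6.38, 7.49 and 7.28 with fluvastatin. The groups did not overlap, and AGR2 was 3.36-fold lower (−1.75 ± 0.28, adjusted p = 0.000862). SPDEF had 6.61, 7.0, 6.60 and 6.52 with zoledronate and 9.43, 7.57, 8.05 and 7.93 with fluvastatin, again apart, and was 2.95-fold lower (−1.56 ± 0.22). ELF3, an epithelial ETS factor, stood at −1.11 ± 0.15 and TFF1, a trefoil peptide, at −0.74 ± 0.15. The keratin KRT19 was lower, at −0.70 ± 0.15 (adjusted p = 0.00732). Of 25 measured, 9 were lower and 0 higher (36.0% called, against 7.23% of all genes), with a median of −0.11. The counts were 3, 8, 7 and 8 with replicate 1, 2, 3 or 4 left out. AGR2, SPDEF and ELF3 were the 3 called without replicate 1, at −1.38, −1.14 and −0.95. Other members, among them ESR1, FOXA1, GATA3, XBP1, KRT18 and the epithelial marker EPCAM, did not pass. ESR1, which was dim, averaged 4.84 with zoledronate and 4.95 with fluvastatin, and EPCAM 8.18 and 8.24. FOXA1, GATA3 and XBP1 stood at 0.02, −0.06 and −0.04, and the keratin KRT18 at 0.10.

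The steroid-reducing aldo-keto reductases AKR1C1, AKR1C2 and AKR1C3 were lower with zoledronate whichever replicate was left out. AKR1C1 had log2 values of 7.03, 7.84, 8.05 and 7.98 with zoledronate, against 9.72, 8.95, 9.47 and 9.25 with fluvastatin. AKR1C2 had 5.12, 6.36, 6.33 and 6.04 with zoledronate, against 7.96, 7.51, 7.68 and 7.54. Neither gene's groups overlapped. AKR1C1, AKR1C2 and AKR1C3 were lower, at −1.62 ± 0.21, −1.71 ± 0.24 and −1.25 ± 0.17. These paralogs are nearly identical and their probes can share signal, and a second, dimmer AKR1C1 probe set differed by −0.57 in 3 of 4 pairs. The other 6 of 9 measured aldo-keto reductases did not pass, with AKR1B10, a relative also induced by oxidative stress, at −0.01 ± 0.24. AKR1B10 was dim, averaging 4.103 with zoledronate and 4.115 with fluvastatin, so its lack of a difference says little. Of 18 NRF2 and oxidative stress genes 4 were lower. They were NQO1, a quinone reductase (−0.38 ± 0.09), ME1, malic enzyme (−0.30 ± 0.07), ALDH3A1 (−0.31 ± 0.09) and GSR, glutathione reductase (−0.18 ± 0.05). HMOX1, heme oxygenase and a classical member, stood at 0.04 ± 0.09. None of the 4 passed without replicate 1, and 2, 1 and 3 did without replicate 2, 3 or 4.

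Interferon-stimulated genes were lower with zoledronate in 14 of 31 and higher in 0, with a median of −0.26. IFIH1, the RNA sensor MDA5, stood at −0.68 ± 0.12, DDX60 and SAMD9L, antiviral proteins, at −0.53 ± 0.11 and −0.51 ± 0.10, and OAS2, which makes oligoadenylates, at −0.45 ± 0.09. At 12 h the list's median was −0.09. The 24 h count was 1, 14, 5 and 11 with replicate 1, 2, 3 or 4 left out, and IFIH1 was the member called without replicate 1 (−0.52, adjusted p = 0.0417). Among 20 genes of antigen presentation and immune ligands, 3 were higher and 2 lower. GBP2, an interferon-induced GTPase, had log2 values of 5.16, 5.82, 5.93 and 6.16 with zoledronate, against 6.91, 6.76, 7.41 and 7.17 with fluvastatin. The groups did not overlap, GBP2 was 2.45-fold lower (−1.29 ± 0.15, adjusted p = 6.78e-05), and a second probe set gave −0.93. BTN3A3, a butyrophilin, was lower, at −0.34 ± 0.10 (adjusted p = 0.0403, or 0.236 without replicate 1). Through members of its family gamma delta T cells sense phosphorylated isoprenoid precursors. Its relatives BTN3A1, BTN3A2 and BTN2A1 stood at −0.18, −0.09 and −0.03 and did not pass.

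CD274 and PDCD1LG2, checkpoint ligands that restrain T cells, were higher with zoledronate. CD274, the ligand PD-L1, had 7.81, 7.25, 7.21 and 7.48 with zoledronate, against 6.53, 7.07, 6.74 and 6.57 with fluvastatin. The groups did not overlap, and CD274 was higher by 0.71 ± 0.13 (adjusted p = 0.00283), or by 0.52 without replicate 1 (adjusted p = 0.0795). PDCD1LG2, its relative PD-L2, was higher by 0.60 ± 0.11 (adjusted p = 0.00265, and 0.0458 without replicate 1). TAP2, a peptide transporter of antigen presentation, was higher by 0.33 ± 0.08, and its 3 probe sets gave 0.31 to 0.34, but it did not pass without replicate 1 (0.27, adjusted p = 0.194). CD276 and VTCN1, related ligands of the same list, stood at −0.17 ± 0.11 and 0.05 ± 0.13 (adjusted p = 0.444 and 0.886). With replicate 1, 2, 3 or 4 left out, 1, 3, 2 and 2 members of the list were called higher and 1 was called lower each time.

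The promoters of IFIH1 and IFIT3 are shown because interferon-stimulated response elements lie close to the start of such genes. IFIH1 lies at chr2:162318635-162318934 (minus strand) and IFIT3 at chr10:89327747-89328046 (plus strand, GRCh38.p14). Capitals mark GAAA, 2 bases of any kind and GAAA or, for the other strand, TTTC, 2 bases and TTTC, the 2 between included, with 3 matches in IFIH1, of which 2 overlap each other, and 2 in IFIT3. IFIT3 has 2 listed promoters with 2 matches each, of which 1 is shown.
IFIH1: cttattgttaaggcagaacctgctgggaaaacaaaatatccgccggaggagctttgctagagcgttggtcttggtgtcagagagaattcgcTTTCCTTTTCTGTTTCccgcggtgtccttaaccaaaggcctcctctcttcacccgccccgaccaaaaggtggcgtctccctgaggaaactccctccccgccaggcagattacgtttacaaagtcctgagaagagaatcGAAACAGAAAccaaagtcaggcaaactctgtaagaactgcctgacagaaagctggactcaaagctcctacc
IFIT3: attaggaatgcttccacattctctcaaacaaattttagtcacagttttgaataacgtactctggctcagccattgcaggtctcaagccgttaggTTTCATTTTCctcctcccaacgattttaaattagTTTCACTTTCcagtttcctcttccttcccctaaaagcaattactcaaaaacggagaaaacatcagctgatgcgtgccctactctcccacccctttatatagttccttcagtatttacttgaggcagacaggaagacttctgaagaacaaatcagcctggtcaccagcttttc
Of the 14 called interferon-stimulated genes, 11 had a promoter in the RefSeq table, and 7 of these (DDX60, IFIH1, IFIT1, IFIT3, ISG20, PARP14 and SAMD9) held the motif in at least 1 listed promoter, as do 4.38% of 27305 genes in that table. The list was made of known interferon-stimulated genes, and its uncalled members were not scanned. This share therefore does not bear on which of them differed between the agents.

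Genes tied to low oxygen were lower with zoledronate in 10 of 23 and higher in 0, with a median of −0.27. HIF1A, the oxygen-regulated transcription factor subunit, had log2 values of 10.47, 10.20, 10.52 and 10.89 with zoledronate, against 11.29, 10.78, 11.20 and 11.46 with fluvastatin. The groups overlapped, with replicate 2 lowest in both, but the 4 pair differences were close to each other. HIF1A stood at −0.66 ± 0.07, with the smallest adjusted p of all genes (6.94e-06), and at −0.61 without replicate 1 (adjusted p = 0.000119). EPAS1, its relative HIF-2 alpha, was lower, at −0.92 ± 0.15, VEGFA, the angiogenic growth factor, at −0.79 ± 0.16, NDRG1, a stress gene, at −1.14 ± 0.26 and ALDOC, an aldolase, at −0.68 ± 0.14. SLC2A1, the main glucose transporter, stood at 0.13 ± 0.07 and did not pass. The count was 2, 10, 6 and 6 with replicate 1, 2, 3 or 4 left out, HIF1A and EPAS1 being those without replicate 1. Among 23 genes of the unfolded protein and integrated stress responses 2 were called (8.7%, against 7.23% of all genes), both lower. They were DDIT4, an inhibitor of mTOR (−1.03 ± 0.21), and VLDLR, a lipoprotein receptor (−0.70 ± 0.17). Neither passed without replicate 1 (1 member did without replicate 4). HSPA5, the chaperone BiP, stood at −0.12 ± 0.06 and DDIT3 at 0.22 ± 0.19.

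Genes of integrins, which are adhesion receptors, and of laminins, which are matrix proteins, were lower with zoledronate in 9 of 19 and higher in 0. In all, 47.4% were called, against 7.23% of all genes, with a median of −0.25. ITGB4, a laminin receptor subunit, stood at −0.98 ± 0.21, ITGA10 and ITGA2, collagen receptor subunits, at −0.95 ± 0.20 and −0.67 ± 0.14, and LAMB2, a laminin chain, at −0.37 ± 0.09. The count was 1, 7, 3 and 5 with replicate 1, 2, 3 or 4 left out, ITGB4 being the one without replicate 1 (−0.57, adjusted p = 0.0405). Matrix genes went both ways, with 5 lower and 2 higher of 25. COL6A1 and the crosslinking enzyme LOXL4 were lower, at −0.63 ± 0.11 and −0.63 ± 0.09, and TNC, tenascin C, at −0.61 ± 0.11. COL8A1 and COL12A1 were higher by 0.53 ± 0.11 and 0.51 ± 0.10. COL6A1, LOXL4 and COL12A1 were called without replicate 1, and 8, 5 and 5 matrix genes without replicate 2, 3 or 4. Of 27 proteases and their inhibitors, 7 were lower and 1 higher. CTSD, cathepsin D, was lower, at −0.63 ± 0.09, PLAT, tissue plasminogen activator, at −0.74 ± 0.16, and the metalloprotease inhibitors TIMP3 and TIMP1 at −0.58 ± 0.12 and −0.57 ± 0.10. ADAM9, a membrane protease, was higher by 0.26 ± 0.07. Without replicate 1 CTSD and TIMP1 alone passed, and 6, 5 and 6 of this list did without replicate 2, 3 or 4. HAS2, which makes hyaluronan, had 8.81, 8.13, 8.93 and 8.90 with zoledronate, against 9.74, 8.72, 9.43 and 9.42 with fluvastatin. It was lower in each pair, at −0.64 ± 0.10 (adjusted p = 0.000519, and 0.0177 without replicate 1).

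Genes of TGF-beta signalling and of bone metastasis, the setting in which zoledronate is given, split by gene. FST, follistatin, which traps activin, and TGFB2 were higher by 0.84 ± 0.21 and 0.69 ± 0.17. TGFBR1, the type I receptor, TGFB1 and ID1, a BMP target, were lower, at −0.54 ± 0.08, −0.41 ± 0.08 and −0.56 ± 0.13. In all, 2 of 21 were higher and 6 lower, and the receptor alone passed without replicate 1 (−0.46, adjusted p = 0.0117), against 7, 5 and 3 members without replicate 2, 3 or 4. DKK1, which blocks bone formation by osteoblasts, had log2 values of 11.10, 11.25, 11.09 and 11.05 with zoledronate, against 8.89, 10.87, 10.24 and 10.37 with fluvastatin. The zoledronate arrays lay between 11.05 and 11.25 and above every fluvastatin array, and the difference was 1.03 ± 0.21 (adjusted p = 0.00465). Without replicate 1 it was 0.64 (adjusted p = 0.0622). SPP1, osteopontin, CSF1, a growth factor of osteoclast precursors, and JAG1, a Notch ligand, were lower, at −0.81 ± 0.17, −0.72 ± 0.15 and −0.42 ± 0.10. Of 15 bone metastasis mediators 2 were higher and 4 lower, and none passed without replicate 1, against 5, 4 and 4 without replicate 2, 3 or 4. IL11, which promotes osteoclasts, stood at 0.25 ± 0.18 with an interval of −0.12 to 0.62.

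Other lists held few calls. Of 25 cytokine and NF-kB genes, PTGS2, the prostaglandin synthase COX-2 (−0.78 ± 0.21), TNFAIP2 (−0.36 ± 0.07) and NFKBIA, the inhibitor of NF-kB (−0.35 ± 0.08), were lower, and TNFAIP3, another inhibitor of that pathway, was higher by 0.40 ± 0.09. Of 14 immediate early genes, BHLHE40, a repressor (−0.98 ± 0.21), and FOSL2, an AP-1 subunit (−0.47 ± 0.11), were lower. Of 18 BCL2 family and caspase genes, BCL2L11, the cell death inducer BIM, was higher by 0.29 ± 0.06 and CASP9 lower, at −0.27 ± 0.07. GABARAPL1, an autophagosome protein, was lower, at −0.34 ± 0.09 among 21 autophagy and lysosome genes, as was CTSD. None of these genes except CTSD passed without replicate 1. Without replicate 3 or 4, these lists had 2, 2, 1 and 1 called members each, in the order given.

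Mesenchymal genes showed the cell line's type on all arrays, with VIM, vimentin, at a mean of 12.18 with zoledronate and 12.22 with fluvastatin and CDH1, E-cadherin, at 4.78 and 4.76. Of 15, SPARC, a matrix glycoprotein (0.39 ± 0.08), and SNAI2, a repressor of E-cadherin (0.42 ± 0.10), were higher. CDH11, a cadherin (−0.45 ± 0.09), FN1, fibronectin (−0.41 ± 0.11), and S100A4 (−0.63 ± 0.17) were lower, and SPARC alone passed without replicate 1, against 4, 1 and 4 members without replicate 2, 3 or 4. Markers of other cells showed 1 call in each list (11.1% and 8.33%, against 7.23% of all genes). Of 9 blood cell markers CD14, a monocyte receptor, was lower, at −0.56 ± 0.13 (adjusted p = 0.011, and 0.222 once replicate 1 was dropped), while PTPRC, the defining leukocyte marker, averaged 3.51 with zoledronate and 3.46 with fluvastatin. Of 12 fibroblast and endothelial markers PECAM1, an endothelial adhesion receptor, was lower, at −0.92 ± 0.16 (adjusted p = 0.00147), with −0.44 for a dimmer probe set, while CDH5, the endothelial cadherin, averaged 5.12 in both groups. In bulk RNA, fewer cells with a transcript and less of it in each cell cannot be told apart. The part of these markers in the other differences was not tested.

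**Figure D4:**
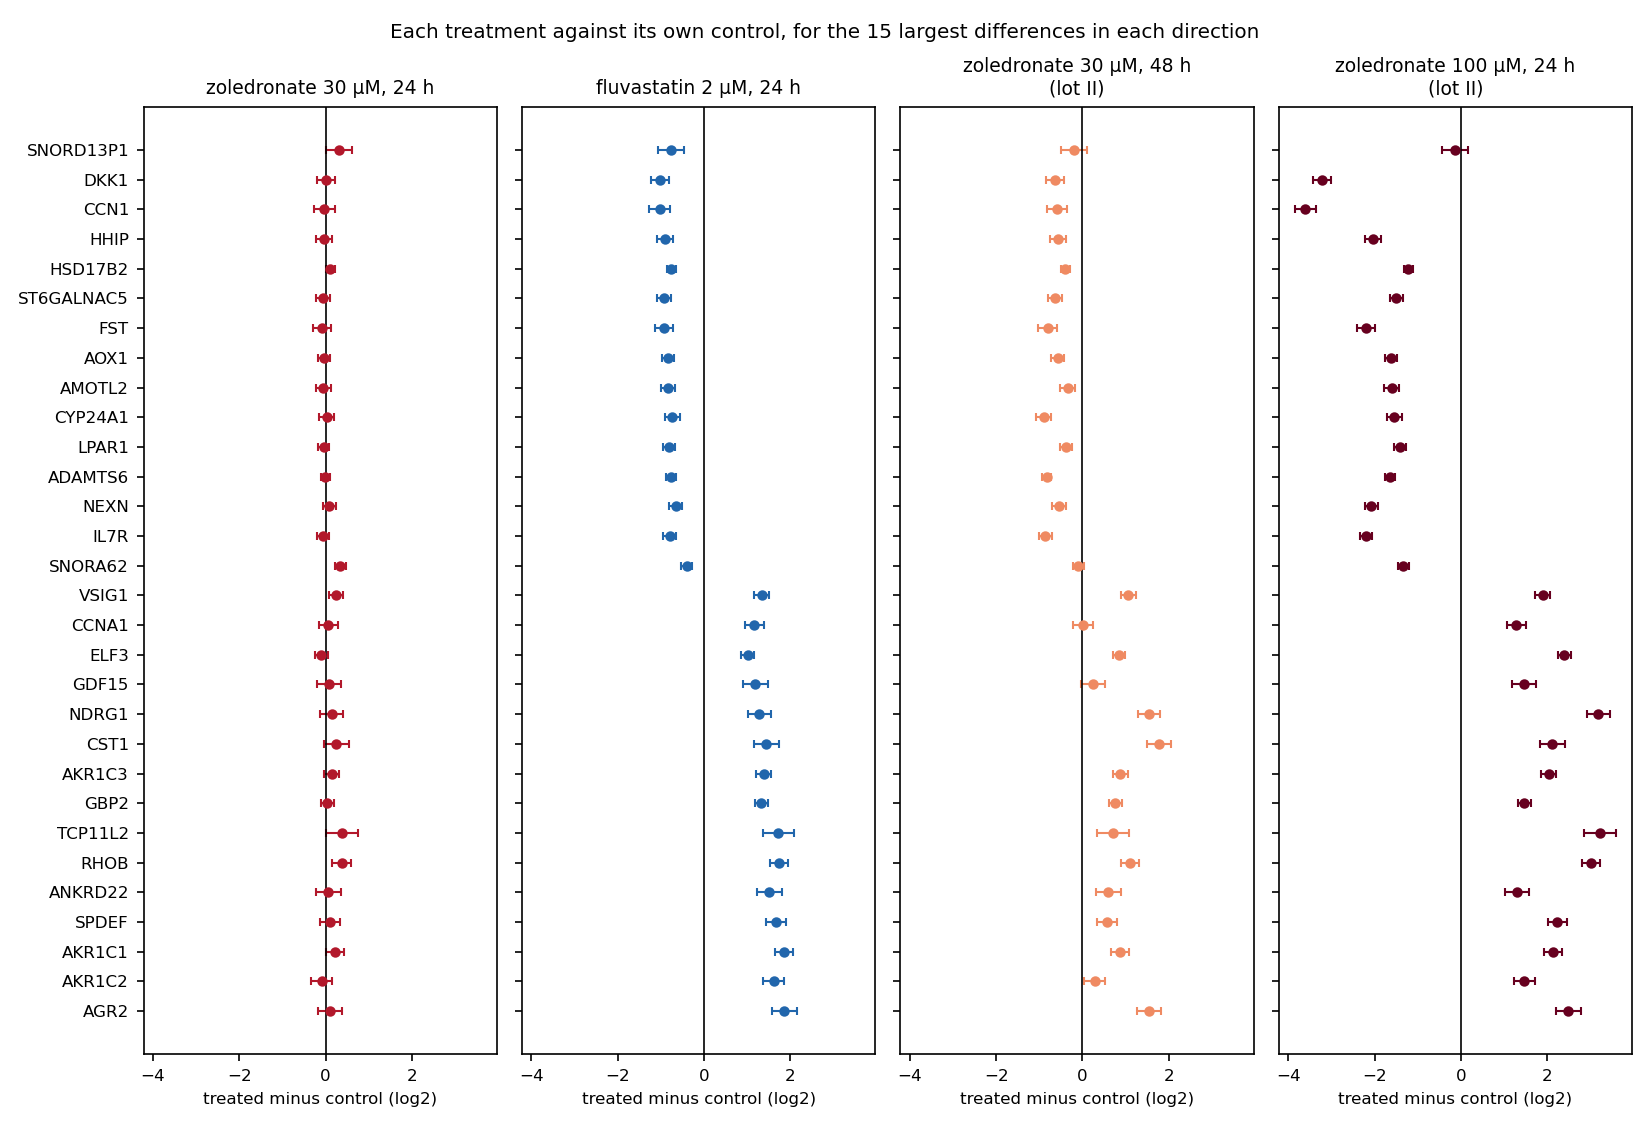
Treated minus control (x axis, log2, bars ± SE, 4 pairs each) for the same 15 largest differences in each direction, with zoledronate 30 µM and fluvastatin 2 µM at 24 h in lot I, and zoledronate 30 µM at 48 h and 100 µM at 24 h in lot II. Zoledronate 30 µM at 24 h lies between −0.10 (ELF3) and 0.38 (TCP11L2) for all 30 genes, while RHOB stands at 0.37, 1.74, 1.11 and 3.01 in the 4 panels.

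Set beside control, the agents placed these genes differently. Limma called 0 genes for zoledronate 30 µM against control at 24 h, with 866 at an unadjusted p under 0.05, and 1930 (10.5%) for fluvastatin against control, 1236 higher (6.71%) and 694 lower (3.77%). These comparisons share the control arrays, so only values are given side by side. For zoledronate and fluvastatin in turn, list medians were 0.05 and 0.27 for ERK feedback genes and 0.02 and 0.33 for Krüppel-like factors. They were 0.03 and 0.32 for interferon-stimulated genes, 0.01 and 0.28 for hypoxia genes and 0.003 and 0.25 for integrins and laminins. G1/S genes had 0.03 and −0.29, and CDK inhibitors and FOXO-linked genes 0.02 and 0.23. AGR2 differed from control by 0.11 with zoledronate and 1.86 with fluvastatin, AKR1C1 by 0.22 and 1.85, and GBP2 by 0.03 and 1.33. DKK1 differed by 0.02 with zoledronate and −1.01 with fluvastatin, MYC by −0.05 and −0.66, and CD274 by −0.07 and −0.78. SNORA62, a small nucleolar RNA that guides ribosomal RNA modification, stood at 0.34 with zoledronate and −0.40 with fluvastatin.

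The same direct comparison at 12 h set other arrays against each other, but both times took their spread from the same fit of all 40 arrays, so their calls are not independent. At 12 h, 136 genes (0.738%) were called, 84 higher (0.456%) and 52 lower (0.282%) with zoledronate. Of these, 96 were also called at 24 h, all in the same direction, which is 70.6% of the 12 h calls and 7.21% of the 24 h calls. Of the 1332 genes called at 24 h, 1230 (92.3%) had the same sign at 12 h, against 62.8% of all genes. RHOB differed by −1.37 at both times, and TSC22D3 by −0.87 at 24 h and −0.82 at 12 h. AGR2 differed by −1.75 at 24 h and −0.33 at 12 h, GBP2 by −1.29 and −0.17, and CST1, a cystatin, by −1.20 and −0.11. The test of the change itself, the 24 h difference minus the 12 h difference, called 0 genes with limma (1177 at an unadjusted p under 0.05). GBP2 and HAS2 had the smallest p in it, with changes of −1.12 and −0.75 (adjusted p = 0.2 for both). HAS2 stood at −0.64 at 24 h and 0.12 at 12 h. The 12 h count was 1, 25, 1 and 53 with replicate 1, 2, 3 or 4 left out. The single genes were RTL3 without replicate 1 and CYP1B1 without replicate 3, both named after their values were seen.

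**Figure D5:**
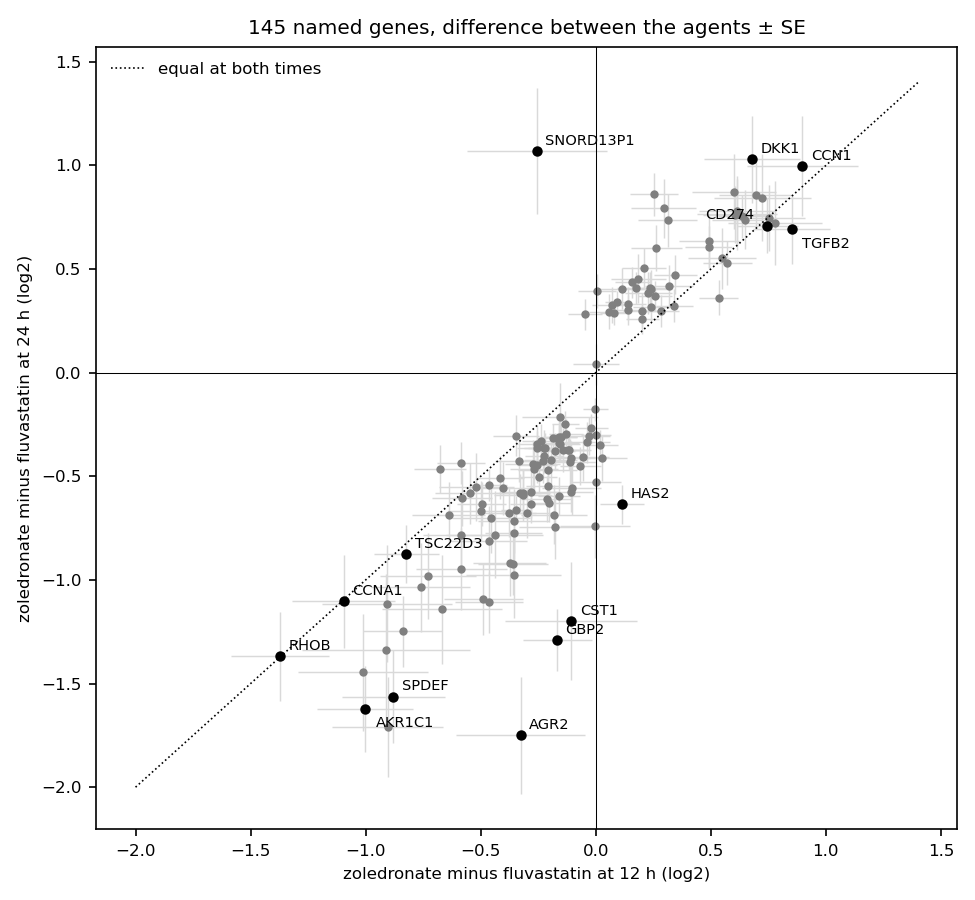
Zoledronate 30 µM minus fluvastatin 2 µM at 24 h (y axis, log2) against the same difference at 12 h (x axis, log2) for the 145 genes chosen by the naming rule, with bars of ± SE. Black points are labelled, and the dotted line marks equal differences. RHOB lies on the line at −1.37, while AGR2, GBP2 and CST1 lie far below it with larger differences at 24 h.

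Higher dose and longer time of zoledronate were measured in lot II. Those arrays enter no difference between the agents, but they shared in the estimate of the spread behind its calls. At 100 µM for 24 h, where 32.0% of all genes were called against their control (15.3% rose and 16.6% fell), 713 (90%) of the 792 genes that were lower with 30 µM zoledronate than with fluvastatin rose, with a median of 0.58. Of these 792 genes, 1 fell, the histone gene H2BC12, named after its values were seen. Of the 540 genes that were higher than with fluvastatin, 483 (89.4%) fell and 0 rose, with a median of −0.60. At 30 µM for 48 h, where 7.59% were called (3.16% rose and 4.43% fell), 279 (35.2%) of the 792 rose and 192 (35.6%) of the 540 fell. All 12 called YAP and TAZ targets fell at 100 µM and 5 of them at 48 h. All 6 called Krüppel-like factors rose at 100 µM and 5 at 48 h. Of the 14 interferon-stimulated genes 13 rose at 100 µM and 4 at 48 h, and of the 10 hypoxia genes 10 rose and 6 did. The 9 higher genes of the MYC network fell in 9 of 9 at 100 µM and in 7 at 48 h. AKR1C2 rose by 1.46 at 100 µM and stood at 0.29 at 48 h (adjusted p = 0.542), and CCNA1, a cyclin of germ cells, rose by 1.29 and stood at 0.01. Agent, dose and lot differ between these sets, and their parts in the result cannot be told apart.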

How the data were processed

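Total RNA of 40 cultures was hybridised to Affymetrix Human Gene 1.0 ST arrays. The authors deposited log2 values. Per the submitters' processing notes, these come from RMA (Affymetrix Power Tools 1.10.2), and limma was their test. No source used here gives the genome build or says whether RMA ran over both lots at once. Of 33297 probe sets, 19460 carried 1 gene symbol, 1754 several and 12083 were not listed in the platform annotation. The brightest probe set was kept for 769 genes with more than 1, which left 18417 genes with no filter on dim ones. No detection call goes with these values.

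Limma 3.58.1 in R 4.3.3 (lmFit, eBayes) fitted 16 blocks of lot, time and replicate number plus 6 treated effects over 40 arrays (18 residual degrees of freedom). P values were two-sided and adjusted by Benjamini-Hochberg over all genes, with a threshold of 0.05. The pairing comes from the design text. Deviations of same-numbered zoledronate and fluvastatin arrays correlated at 0.262, 0.347, 0.323 and 0.484 at 24 h, and each array correlated best with its own number. The code was tested on simulated data.

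The members and the 36 gene lists were chosen with earlier results of these data known. Of the lists 2 are not reported here. The text names in each direction the 15 largest called differences with 1 sign over 4 of 4 pairs, the 4 called members of each list with the smallest p, called members against a list's majority, the 2 smallest p of the time contrast, plus a set of fixed names, 145 genes in all. Other genes were named after their values were seen. The alternatives changed the replicate block (none, random, or shared over times), the arrays fitted, the scaling (a new quantile normalization, or arrays centred on their medians), the genes (dimmest removed, or probe sets averaged), the variance model (trend with intensity, weighted arrays) or left out 1 replicate.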

Additional observations from a re-analysis of the deposited data

Results flagged for a closer look

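In the 145 genes chosen by the naming rule, the 4 zoledronate and the 4 fluvastatin arrays at 24 h were each checked for a lowest or highest array far from its neighbour (its gap, over the group's range, above Dixon's 95% critical value). Of 290 groups 14 had one, and chance gives about 1 in 20. With zoledronate, replicate 1 was far below the other 3 arrays for ACSS2 (8.46), ITGA10 (5.57), MSMO1 (9.05) and TFF1 (6.72). Replicate 2 was far below for HAS2 (8.13) and VLDLR (6.11) and far above for CST1 (9.82, with the others at 7.97, 8.22 and 8.26), and replicate 4 was far above for AMOTL2 (9.03). With fluvastatin, replicate 1 was far above for MXD4 (8.49), PLAT (11.64), RHOC (10.79, with the others at 10.17, 10.17 and 10.18) and RRAS (9.65), and replicate 2 was far below for KLF6 (9.38) and RHPN2 (8.23). RHOC and RRAS, at −0.34 and −0.41 with all replicates, stood at −0.23 and −0.20 without replicate 1.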

How the results depend on the processing

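The 24 h count of 1332 called genes (540 higher and 792 lower) depended most on the replicate pairing, on replicate 1 and on the arrays that gave the spread. With no replicate block it was 367 (118 higher and 249 lower), and with only the 8 arrays compared it was 0, 0 higher and 0 lower. With each replicate left out it ran from 146 to 1289 (36 to 540 higher and 110 to 749 lower). Under the other 9 alternatives it lay between 1147 and 1699. The 12 h count of 136 was 14 with no replicate block, 13 with only the arrays compared, 246 without the dimmest genes, 249 with an intensity trend, 277 with array weights and 1 to 53 with each replicate left out. The count of 0 for the change between times was 1 with lot I arrays only (GBP2), with array weights (GBP2) and with an intensity trend (HAS2). Of the 145 genes chosen by the naming rule 142 were called, and FDPS, which was not, alone changed direction in any alternative. Outside the rule, some uncalled genes also changed direction without replicate 1. For example, ESR1, CDH5 and FOXA1 (−0.11, −0.0006 and 0.02) then stood at 0.06, 0.06 and −0.04. Calls ended for 70 with no replicate block, 142 with only the 8 arrays, 103, 7, 40 and 41 without replicate 1, 2, 3 or 4, 14 with a random replicate block and 0 to 6 under each other alternative. Counts of called members moved by over 1.5 times in 32 of 36 lists with no replicate block and in 33 without replicate 1. The number of arrays, 4 a group, limits the precision.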
